A study of Arabidopsis thaliana with 4 samples.

Results

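The block described here is a stretch of 15 consecutive plates, TA37 to TA51, of a spotted Arabidopsis thaliana array on which H3K9me2 was profiled. Its members are the spotted features whose identifier is TA, a plate number from 37 to 51, and a well, with a value on every array. They number 1351 of 21727 measured features, or 6.22%. The block was delimited from the same ratios that are described below, because its plates were rich in high ratios. Its levels and counts are therefore a description, and no test of them is given.

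The material was whole seedlings of the col-0 ecotype, 11 days old, grown without treatment in liquid medium at 22 °C with 16 h of light. Chromatin immunoprecipitated with an antibody against H3K9me2 (IP) was hybridised together with the matching input DNA. The 2 preparations, I and II in the labels, are called replicates 1 and 2 here. Each was on a pair of arrays with the Cy5 and Cy3 dyes exchanged, so that 4 arrays form a single group. Separate cultures are not stated for them, and the spread between replicates may thus be technical. Whole seedlings mix all cell types, so a ratio is an average over cells, and more cells carrying the mark cannot be told apart from more mark per cell.

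H3K9me2 is histone H3 dimethylated at lysine 9. In plants it is deposited by SUVH histone methyltransferases such as KRYPTONITE and is bound by CHROMOMETHYLASE enzymes, which methylate DNA outside CG sites, and the SUVH enzymes in turn bind methylated DNA. In Arabidopsis the mark is known from transposons and repeats, which are dense around the centromeres, and it is sparse over most expressed genes. The features carry no gene name, position or sequence in the files used here, so whether any of them lies in such chromatin was not analysed here.

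The deposited value is a ratio of the paired channels, presumably on a log scale since it runs below 0, with neither its base nor its direction stated. Features are accordingly called higher or lower, never enriched, and differences are given in the deposited units and not as folds. The paired arrays of a replicate held identical values at all 21727 features, so n = 2 throughout. The median as deposited was -1.39 for replicate 1 and -1.15 for replicate 2. It was subtracted from each, so that 0 stands for the array median. A well is called high-ratio when it lies at least 1 unit above the array median in both replicates, low when the mean of its replicates is under 0.5 units, and intermediate otherwise.

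Most of the block lay far above the array median in both preparations. In replicate 1 it had a median of 2.79 units, with quartiles of 1.98 and 3.25, and the rest of the array had a median of -0.0311 units. In replicate 2 the block median was 2.33 units, with quartiles of 1.72 and 2.72, and that of the rest was -0.0479 units. Over the replicates the block median averaged 2.56 ± 0.33 units (SD, n = 2). High-ratio wells numbered 1175 of 1351, or 87.0% (95% Wilson interval 85.1 to 88.7, which covers counting error only and treats neighbouring wells as independent), beside 19.2% over all features. limma's moderated test at an adjusted p under 0.05, fitted over the whole array, called 1279 members above the array median, or 94.7%, beside 28.9% over all features. It called 3 members below, or 0.222%, beside 11.7% over all features. Since the block was chosen on this contrast, nothing is read from the gap between its shares and those of the array.

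**Figure D1:**
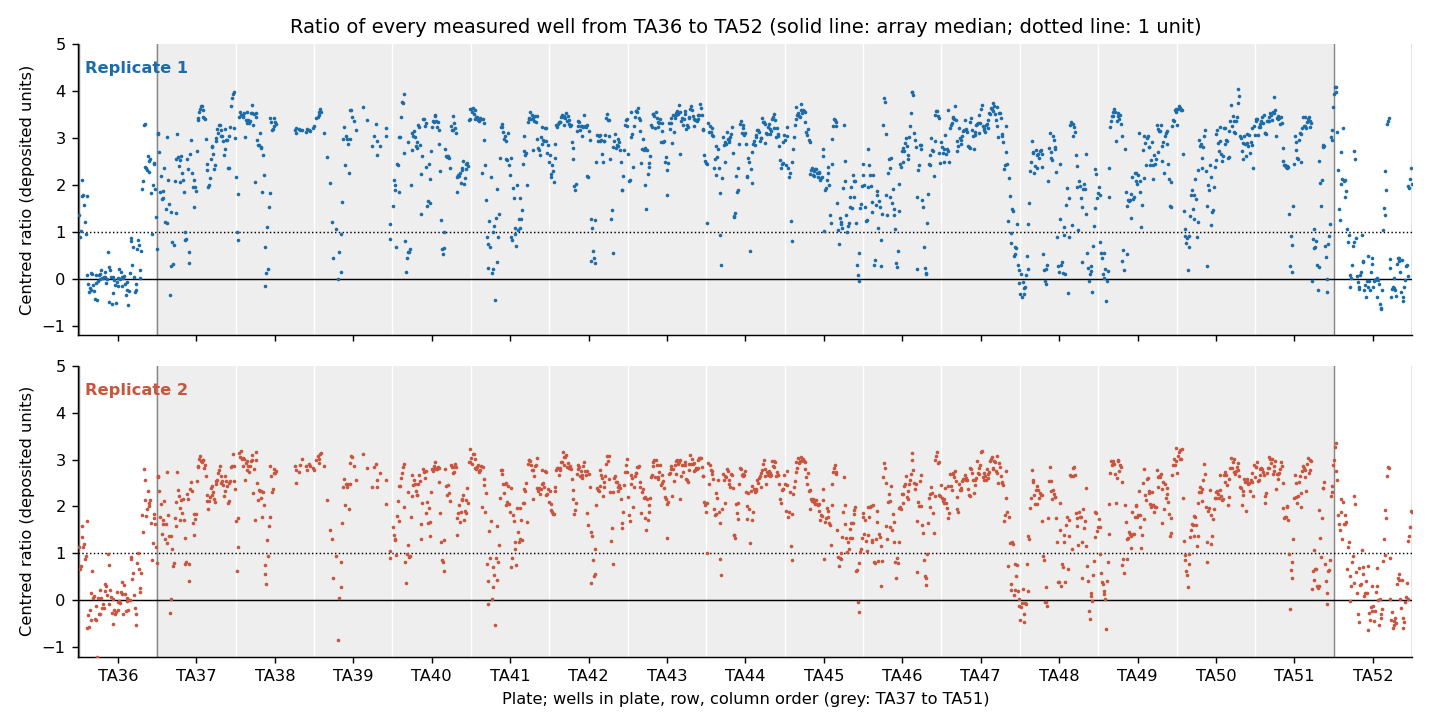
Centred ratio in deposited units of every measured well (points) from TA36 to TA52, in plate, row and column order, in replicate 1 (upper) and replicate 2 (lower). Wells of TA37 to TA51 (grey) fill a band with medians of 2.79 units in replicate 1 and 2.33 in replicate 2, broken by short dips to the array median at the same wells in both, the widest of them across TA47 and TA48.

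The ratios were concentrated near the top of their range, with a tail downwards. The fullest quarter-unit bin of the mean of the replicates ran from 3 to 3.25 units and held 246 wells, or 18.2%. The next bin, up to 3.5 units, held 85 wells, and only 2 wells lay above it. Below the peak the counts fell more slowly, with 204 wells between 2.75 and 3 units, 124 between 2 and 2.25 and 42 between 1 and 1.25. The skewness was -1.0 in replicate 1 and -1.06 in replicate 2 of the block, against 1.83 and 1.41 in the rest of the array. Of the 184 features of the whole array with a mean of at least 3.25 units, 87 (47.3%) were members, and of the 14 with at least 3.5 units 2 were. Members made up 6.22% of all features. Because the block was chosen for high ratios, nothing is read from these shares or from the contrast in skewness. No intensities were used here, and the part of spot saturation in this edge was not tested.

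**Figure D2:**
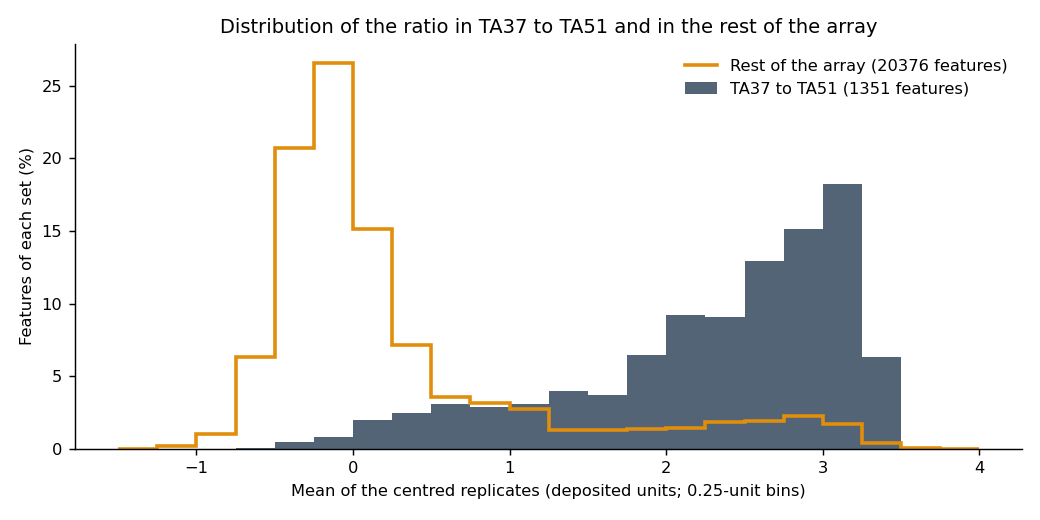
Share of features (%) in quarter-unit bins of the mean of the centred replicates, for the 1351 members (filled bars) and the 20376 features in the rest of the array (line). The members peak between 3 and 3.25 units with a tail towards 0, whereas the rest peaks near 0 with a tail upwards.

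The highest member was TA46F01, at 3.97 units in replicate 1 and 3.14 in replicate 2. TA37H09 lay at 3.93 and 3.11 units, and TA46E12, the well directly before TA46F01, at 3.97 and 3.0. All 3 were lower in replicate 2, with differences, replicate 2 minus replicate 1, between -0.815 and -0.975 units. The lowest member was TA49A10, at -0.474 units in replicate 1 and -0.611 in replicate 2. TA41C06 followed at -0.448 and -0.514 units. TA39C06 had -0.000859 units in replicate 1 and -0.845 in replicate 2, so only replicate 2 put it clearly below the array median. These 3 were the members called below the median.

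Members just inside and just outside the limit for high-ratio wells differed little. TA45G05 was just inside, at 1.0 units in replicate 1 and 1.03 in replicate 2, as was TA44A02, at 1.18 and 1.0. TA37C11 was just outside, at 0.99 and 1.33 units, and so was TA40F03, at 0.987 and 1.28. In all, 19 members passed the limit in replicate 1 only and 12 in replicate 2 only, so the class of these 31 wells depended on the replicate. Over all 21727 features, 273 passed it in replicate 1 only and 413 in replicate 2 only.

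The plates differed in level and in evenness. TA38 and TA43 had the highest plate medians of the mean ratio, 3.0 and 2.99 units. TA43 was the plate without a single well outside the high-ratio class, and the lowest of its 96 wells had a mean of 1.5 units. Its median reached 3.32 units in replicate 1 and 2.66 in replicate 2. TA44, with 96.9% high-ratio wells, and TA42, with 94.8%, flanked it. TA48 had the lowest level, with medians of 1.72 units in replicate 1 and 1.58 in replicate 2 and with 62.5% high-ratio wells. The other 14 plates had medians of the mean ratio above 2 units, and in all 15 plates the median was lower in replicate 2 than in replicate 1.

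Plates with a reduced level did not all look alike. In TA48 the quartiles were 0.396 and 2.39 units, and 26 of its 96 wells were low. TA45 and TA46, with medians of 2.12 and 2.16 units, the next lowest after TA48, had only 3 and 6 low wells. The quartiles were 1.53 and 2.76 units in TA45 and 1.44 and 2.60 units in TA46. TA51 combined a high median of 2.70 units with 9 low and 12 intermediate wells, and had 78.1% high-ratio wells.

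**Figure D3:**
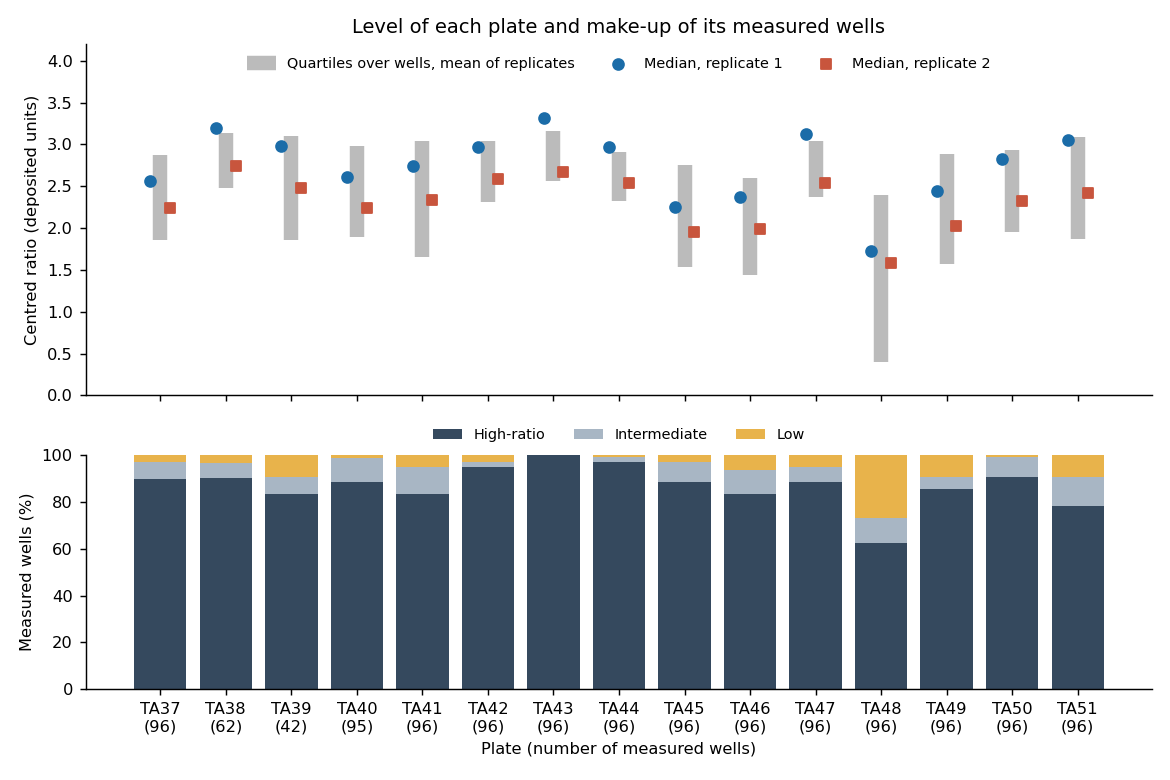
Upper panel: plate medians of the centred ratio in deposited units in replicate 1 (circles) and replicate 2 (squares), with quartiles over the wells of the mean ratio (bars); lower panel: share of measured wells (%) that were high-ratio, intermediate or low, with the number of wells under each plate. TA43 is uniformly high-ratio, TA48 has the lowest medians and the most low wells, and replicate 2 lies below replicate 1 in all 15 plates.

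Not every well carried a value. Of the 1440 wells of 15 full plates, 88 were not listed and TA40F08 was listed without a value. The unlisted wells were all in TA38, with 62 measured wells, and TA39, with 42, which therefore rest on fewer features. Leaving both plates out gave a block median of 2.75 units for replicate 1 and 2.31 for replicate 2.

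High-ratio wells formed long unbroken runs. In well order, 95.8% of them (1126 of 1175) lay in 45 runs of at least 3 directly consecutive wells. With 87.0% of the wells in the class, a large share in such runs says little about their order. A further 25 were single in well order, but 16 of these were in TA38 and TA39 next to an unlisted well, and 9 stood between measured wells outside the class. The longest run had 131 wells, from TA42G07 to TA44B05, and averaged 3.02 units in replicate 1 and 2.5 in replicate 2. It contained all of TA43, and its lowest well, at 1.09 units, was TA44A02. The wells that ended it were TA42G06, at 0.657 units, and TA44B06, at 0.910 units in the mean.

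The other 4 of the 5 longest runs were spread over the block. TA50D03 to TA51D05 had 99 wells with averages of 2.99 units in replicate 1 and 2.48 in replicate 2. TA46G08 to TA47G09 had 98 wells at 3.11 and 2.51 units, and its lowest well lay at 1.73 units. TA41E09 to TA42E02 had 90 wells at 2.88 and 2.48 units, and TA49D01 to TA50A09 had 69 wells at 2.61 and 2.19. Together the 5 runs held 487 wells, or 41.4% of the high-ratio wells. The 10 wells on either side of these 5 runs lay between 0.372 and 1.18 units in the mean. The lowest of them, TA42E03, was a low well and was not called above the array median.

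The low wells were few and clustered. They numbered 78, or 5.77% of the block, beside 72.7% of all features. The 95% Wilson interval, 4.65 to 7.15, covers counting error only. It treats neighbouring wells as independent, which clustered wells are not. TA48 and TA49 held 35 of the low wells, and the other 13 plates shared 43. In well order they formed 39 stretches, of which 25 were single wells, 6 were pairs and 8 had at least 3 wells. The 8 longer stretches held 41 low wells (52.6%).

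The longest low stretch ran over 11 wells across a plate border, from TA47H10 to TA48A08. It averaged -0.0774 units in replicate 1 and -0.103 in replicate 2, which is the level of the array median. Its lowest well, TA48A01, lay at -0.320 units in replicate 1 and -0.418 in replicate 2. The wells before it were already down, with TA47H05 at 0.476 and 0.106 units and TA47H09 at 1.16 and 0.744. On the far side the ratio climbed to 2.30 and 1.98 units at TA48B01, but TA48A11, at 0.205 and 0.197 units, was low once more. With the intermediate wells included, the 17 wells from TA47H05 to TA48A09 formed the longest stretch without a high-ratio well.

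The next stretches by length lay in TA48 and TA49. TA49A05 to TA49A12 had 8 wells averaging 0.120 units in replicate 1 and 0.217 in replicate 2, and it held TA49A10, the lowest member. The ratio declined over several wells on its near side, from TA49A02 at 1.78 and 1.57 units through TA49A04 at 0.557 and 0.575. On its far side it stepped up between TA49A12, at 0.158 and 0.813 units, and TA49B01, at 1.74 and 1.41. TA48G12 to TA48H05 had 6 wells averaging 0.0730 and 0.00605 units, with graded values on both sides. TA48C07 to TA48C10 had 4 wells at 0.0845 and 0.0269 units.

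Of the 4 stretches of 3 wells, TA45H05 to TA45H07 came first in well order, with averages of 0.110 units in replicate 1 and 0.122 in replicate 2. The others lay in TA46, with averages of 0.153 and 0.440 units, and in TA51. The first of these in TA51, TA51G04 to TA51G06, averaged 0.101 and 0.296 units, and the second, TA51H03 to TA51H05, averaged 0.0668 and 0.167.

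**Figure D4:**
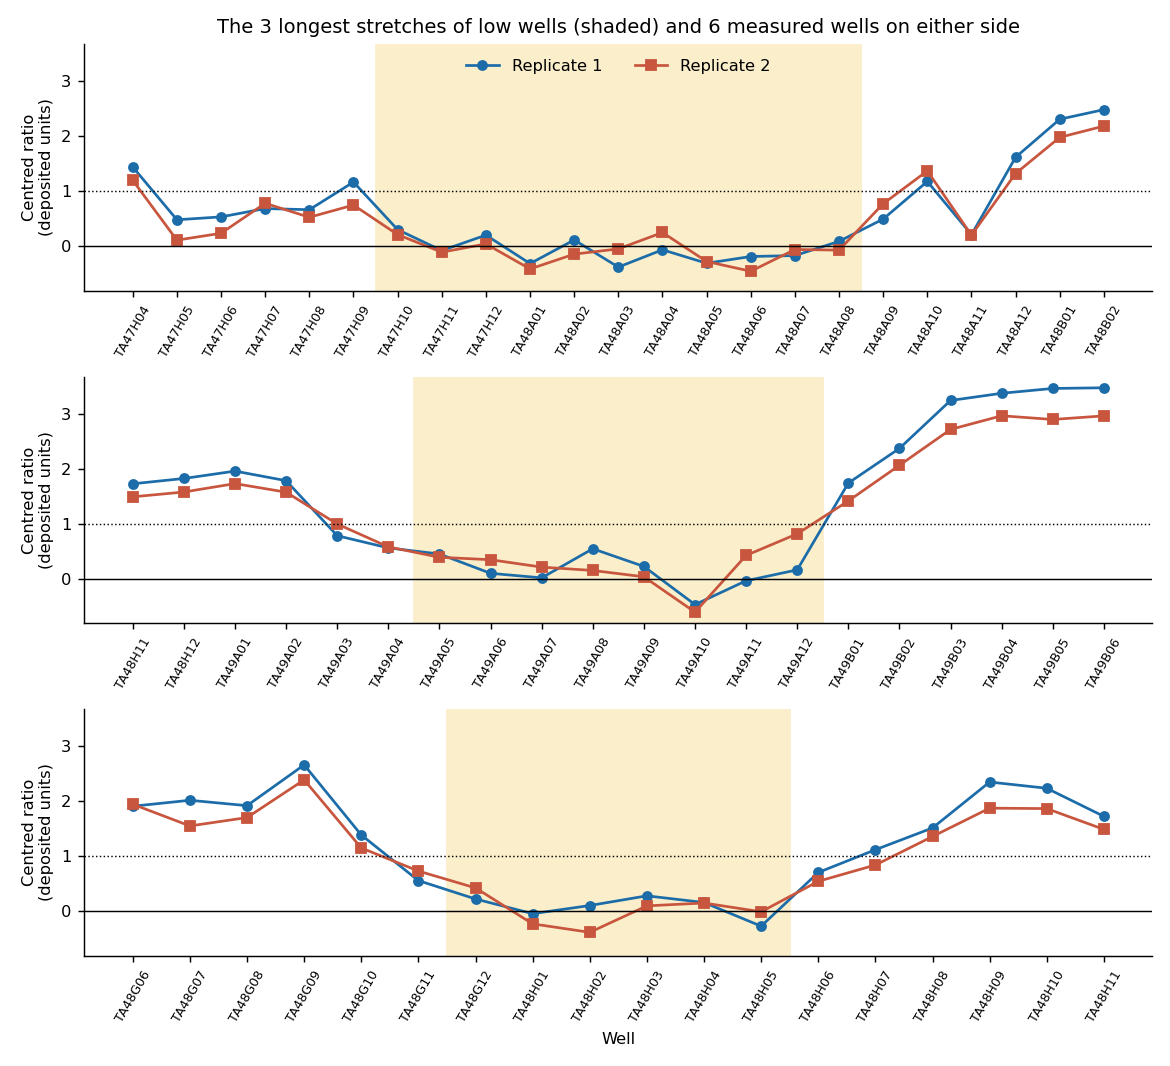
Centred ratio in deposited units, well by well, in replicate 1 (circles) and replicate 2 (squares) across the 3 longest stretches of low wells (shaded) with 6 measured wells on either side. Both replicates come down to near the array median at the same wells, through intermediate values on most borders but directly between TA49A12 and TA49B01.

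Most single low wells had at least 1 neighbour that was not a high-ratio well. Both adjacent wells were measured for 23 of the 25, of which 4 had a high-ratio well on both sides, 11 had one on 1 side and 8 had none. The median of these 23 was 0.289 units and the median of their neighbours' mean was 1.34 units. TA41C06, the lowest of them, had neighbours averaging 0.972 units. An example of a sharp border was TA51F10, singled out after its values were seen, at -0.0431 units in replicate 1 and 0.245 in replicate 2. The well before it, TA51F09, lay at 3.32 and 2.97 units, which was the largest step between adjacent wells of the block, at 3.04 units in the mean.

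The 98 intermediate wells made up 7.25% of the block, beside 8.13% of all features. Of these, 40 touched a low well, a further 46 touched a high-ratio well and no low one, and 12 touched neither. They had medians of 0.795 units in replicate 1 and 0.820 in replicate 2.

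Adjacent wells carried similar ratios, and the likeness faded within about 1 row of 12 wells. Over 1320 pairs of directly consecutive wells, the mean absolute difference was 0.348 units and Pearson's r was 0.824. At 3 wells apart the difference was 0.573 units and r was 0.574 (1318 pairs), at 6 wells apart 0.751 units and 0.331 (1309 pairs), and at 12 wells apart 0.872 units and 0.155 (1296 pairs). At 96 wells apart, which is the same well of the next plate, it was 0.95 units and r was 0.0404 (1191 pairs). The pairs overlap and share the arrays, so these correlations are given as a description.

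The likeness did not stop at the end of a row or plate. The mean absolute difference was 0.344 units over 1212 pairs within a row, 0.401 units over 96 pairs across a row end and 0.285 units over 12 pairs across a plate border. Wells directly below one another in a plate column differed by 0.892 units (1145 pairs). Steps of at least 1 unit occurred at 90 of the 1320 consecutive pairs, or 6.82%, and steps of at least 2 units at 8.

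The replicates ordered the members alike, but replicate 2 spanned a shorter range. Across the 1351 members, which are not independent replicates, Pearson's r between replicates was 0.972 and Spearman's rho 0.963. Replicate 2 was lower at 1191 members (88.2%), beside 62.9% of all features. Replicate 2 minus replicate 1 had a median of -0.433 units in the block and -0.114 units over the whole array. The difference depended on the class of well. It was -0.464 units among the high-ratio wells, with an SD of 0.237 over wells, 0.0535 units among the intermediate wells and 0.0796 units among the low wells. High-ratio wells elsewhere were lower in replicate 2 as well, so this is not particular to the block. Their median difference was -0.411 units in TA21 to TA30, -0.305 in TA31 to TA36, -0.398 in TA52 to TA66 and -0.528 in TC17 to TC30. Replicate 2 put the block median 2.37 units above the median of the rest of the array and replicate 1 put it 2.82 units above, a ratio of 0.841. When both replicates were quantile-normalized, the median difference turned to 0.0159 units. That setting gives both replicates the same distribution over the array, so it largely removes a difference in range by itself.

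The members with the largest replicate differences in either direction were TA50G04 and TA50G05, which are adjacent, and TA48E11 and TA38D04. TA50G04 lay at 4.05 units in replicate 1 and 2.77 in replicate 2, and TA50G05 at 3.89 and 2.65, so that replicate 2 minus replicate 1 was -1.27 and -1.23 units. In the other direction, TA48E11 lay at -0.300 units in replicate 1 and 0.663 in replicate 2, and TA38D04 at 0.214 and 0.956.

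**Figure D5:**
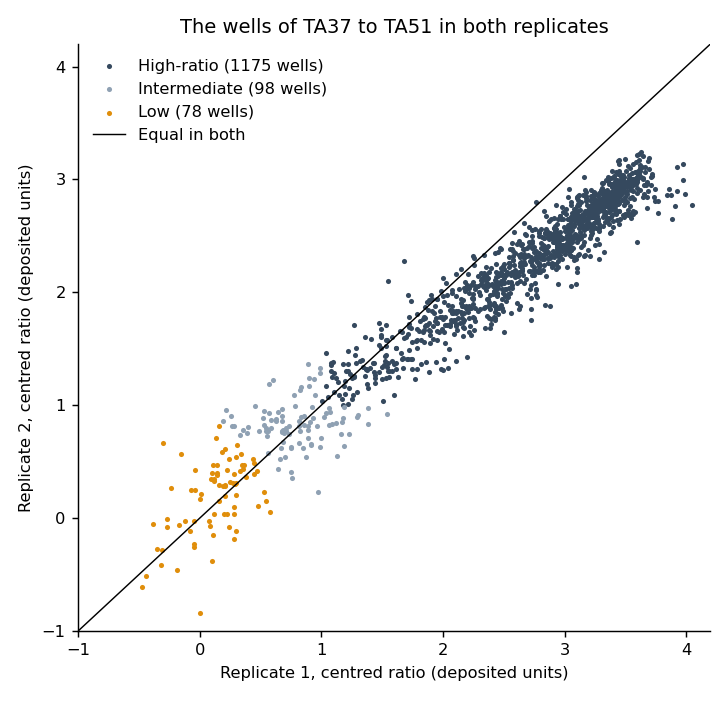
Centred ratio in replicate 2 against that in replicate 1, in deposited units, for the 1351 members, with the line of equal values. Of the high-ratio wells, 1117 lie below the line and 58 above it, with a median difference of -0.464 units, while low and intermediate wells lie about it.

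The limits of the block follow plates. High-ratio wells lay on both sides of each limit, although the ratio stepped up at the first limit. The first well, TA37A01, lay at 3.09 units in replicate 1 and 2.66 in replicate 2, and the well before it, TA36H12, at 0.643 and 0.788. Yet 10 of the last 12 wells of TA36 were high-ratio wells, against 23 of the 96 wells of the whole plate, so the high ratios began inside TA36. At the other end, TA51H12 lay at 3.66 and 2.87 units and the next well outside, TA52A01, at 3.93 and 3.0. A single run of 20 high-ratio wells crossed this limit, from TA51H09 to TA52B04, with 4 wells inside the block and 16 outside. In TA52 as a whole 30.2% of the wells were high-ratio wells, with medians of 0.316 units in replicate 1 and 0.432 in replicate 2.

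Other plate blocks of the array were likewise delimited from these ratios, so their values are set beside those of TA37 to TA51 without a test. TA37 to TA51 lay between TA21 to TA30 and TC17 to TC30 in the level of its high-ratio wells, its share of low wells and its longest runs, though not in the difference between consecutive wells. The median of its high-ratio wells was 2.94 units in replicate 1 and 2.44 in replicate 2. That of TA21 to TA30 was 2.53 and 2.10 units, and that of TC17 to TC30 was 3.05 and 2.52. Low wells made up 5.77% of TA37 to TA51, 21.7% of TA21 to TA30 and 1.44% of TC17 to TC30. The longest run of high-ratio wells was 131 wells in TA37 to TA51, 57 in TA21 to TA30 and 150 in TC17 to TC30. These blocks held 1351, 885 and 1112 measured wells in that order. The lengths of runs and of low stretches were not adjusted for block size or for unlisted wells. Consecutive wells differed by 0.348 units in TA37 to TA51, by 0.340 in TA21 to TA30 and by 0.244 in TC17 to TC30. The longest low stretch, 11 wells in TA37 to TA51, had 12 wells in TA21 to TA30, 4 in TC17 to TC30, 37 in TA31 to TA36 and 29 in TA52 to TA66.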

How the data were processed

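The authors deposited 1 ratio score per feature and array, with 21800 features listed and 21727 measured. No source used here gives the log base, centring, direction, background correction or normalization. The DNA was amplified and its labelling with Cy3 and Cy5 was direct, per the labels' protocols. The identical dye-swap columns of a replicate were averaged to 1 value, and each replicate was centred on its median. limma's moderated test of the mean against 0 was fitted over all features with Benjamini-Hochberg adjustment at 0.05. Its prior degrees of freedom were infinite, so all features shared an SD of 0.256 units and calls began at 0.421 units. The fit was tested on simulated data, and the search for runs was checked on a small made-up layout of wells.

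Wells were ordered by plate, row and column, and an empty or unlisted well ended a run. Features were named by a rule: the 3 highest and 3 lowest members, those at the limits of the block and of the 1-unit class, the ends of the 5 longest runs and low stretches, and the 2 largest replicate differences either way. The block, its members and the limits were chosen with earlier results of these data known. Alternatives covered centring, quantile normalization, thresholds, run rules, well order, sparse plates and left-out replicates. Comparisons by gene or position were not made, since 0 of the measured features matched an identifier or synonym of the RefSeq gene table by its plate and well name. Tools were R 4.3.3, limma 3.58.1, Python 3.11.15, NumPy 2.4.6, pandas 2.3.3, SciPy 1.17.1 and scikit-learn 1.9.0.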

Additional observations from a re-analysis of the deposited data

How the results depend on the processing

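On the values as deposited, 782 members had 1 unit or more in both replicates and 145 were called below 0 by limma. With the sign turned, none (0) passed the 1-unit limit, 3 members were called above and 1279 below. Calls below the median, 3 in the block, were 0 when centred on the mode, 0 by treat with a limit of 0.5 units and 1 where the adjusted p had to be under 0.01. Low wells numbered 45 under a limit of 0.25 units and 159 under 1 unit. Outside TA48, a setting added after the data were seen, there were 52. Read by plate, column and row, the runs of high-ratio wells numbered 113, and the longest had 172 wells, against 131 in the order used. The mean difference of neighbours was 0.892 units down a column and 0.285 units over plate borders, where there were 12 pairs. The replicate difference in the block reversed to 0.0159 units under quantile normalization, which gives both replicates the same distribution. It reversed to 0.0411 units when both replicates were scaled to the same block distance. Both settings largely remove it by construction. Leaving out 1 replicate gave 1187 to 1194 high-ratio wells, 71 to 86 low wells, 44 runs with a longest of 131 wells, a block median of 2.33 to 2.79 units and a neighbour difference of 0.330 to 0.388 units. Such a setting leaves no test. No paired analysis was possible because there is a single group. With 2 replicates and no intensities used here, the number of arrays limits the precision.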

Other observations

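The position of a well within its plate was set against its ratio over the 15 plates. Plate rows had medians of the mean ratio between 2.28 units (row D) and 2.73 units (row F), and the share of high-ratio wells was lowest in row H, at 81.9%, and highest in row F, at 92.4%. Low wells numbered 17 in row A, 16 in row H and 2 in row F. All 17 of row A were in TA48, with 9, and TA49, with 8, and row A of the other 13 plates had 0, so the count follows the low stretches described above. Those of row H were in 4 plates, TA45, TA47, TA48 and TA51. Plate columns had medians between 2.43 units (column 10) and 2.71 units (column 1). Of the 107 plate rows with all 12 wells measured, 66 held high-ratio wells only, 80 held no low well and 2 had at least 6 low wells. The lowest of these rows was TA48A, with a median of 0.00726 units in replicate 1 and -0.059 in replicate 2.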
